A study of Mus musculus with 6 samples.

Results

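The matrix metalloproteinases, the ADAM, ADAMTS and ADAMTS-like genes and the TIMP inhibitors were followed in hind limb muscle of mice after ischaemia surgery, with and without histidine decarboxylase. The genes were taken by symbol from the expression table, as every numbered Mmp, Adam, Adamts and Adamtsl gene plus Timp1 to Timp4. Mmp8 and Mmp9, the collagenase and gelatinase stored in neutrophil granules, were left out of the set and serve below as companions. This gave 67 of the 25572 genes in the table, made up of 19 MMP, 20 ADAM, 19 ADAMTS, 5 ADAMTS-like and 4 TIMP genes. Genes entered the set by name alone, but the set itself was chosen with earlier results of these data known.

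RNA sequencing was done on muscle from 3 HDCKO mice (Hdc-/-, without histidine decarboxylase, the enzyme that makes histamine) and 3 wild-type (WT) mice, 1 library per mouse. Every mouse of both genotypes had hind limb ischaemia surgery (labelled HLI), and the muscle was taken at day 3. No muscle of unoperated mice entered the comparison. Which limb or muscle was sampled is not stated, nor are the animals' age and strain. The labels do not say that the deletion is limited to a cell type, and the same replicate number in both groups names a library only.

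Metalloproteinases are zinc-dependent enzymes that cut the extracellular matrix and cell-surface proteins, and many are made as inactive proenzymes. MMPs degrade collagens, gelatin, elastin and proteoglycans, ADAMs are membrane-bound enzymes that release (shed) growth factors, cytokines and receptors, and ADAMTS enzymes are secreted and cut proteoglycans and procollagens. ADAMTS-like proteins have the ancillary domains of ADAMTS enzymes without the protease, and TIMPs are secreted proteins that block the active site. In injured muscle these genes are known from invading leukocytes, fibroblasts, vessels and regenerating myogenic cells.

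Levels are in FPKM, fragments scaled by gene length and by library size. Of the 67 genes, 42 averaged 0.5 FPKM or more across all 6 libraries and were tested with limma on log2(FPKM + 0.5), in 1 fit over 13288 genes. A gene was called when its Benjamini-Hochberg adjusted p was under 0.05. Log2 changes are HDCKO minus WT on this scale, given with a standard error (SE), and are damped for genes near 0. The p-values weigh the difference between the groups against the spread among mice within a group, moderated over all genes tested.

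Gene expression differed widely between the groups. Hdc stood at 1.22, 2.46 and 2.52 FPKM in HDCKO libraries and at 7.49, 7.72 and 8.17 FPKM in WT libraries, so reads on the gene remained in the libraries labelled HDCKO (log2 change -1.74, SE 0.25, adjusted p = 0.0033). The summed FPKM of a library ran from 423967 to 454887 in HDCKO and from 405521 to 420035 in WT. Mitochondrial transcripts held 11.9% to 18.4% of it in HDCKO and 3.49% to 3.99% in WT. The table has no read counts. Judged from the steps between low FPKM values, depth was roughly 29500000 to 37600000 fragments in HDCKO and 31900000 to 37100000 in WT, so that 1 fragment on a gene of 2 kb was worth about 0.0133 to 0.017 FPKM. The 10 skeletal muscle fibre markers summed to 35607 to 63938 FPKM in HDCKO and to only 297 to 1208 FPKM in WT, with none at 0 in every library of a group. The label of skeletal muscle was met by these genes in HDCKO, but in WT several of them were near 0. The slow and fast myosins Myh7 and Myh2 had 11.8 to 74.2 and 114 to 389 FPKM in HDCKO, against 0.00813 to 0.0614 and 0.124 to 0.288 FPKM in WT. The skeletal actin Acta1 had 12725 to 21024 FPKM in HDCKO and 137 to 553 FPKM in WT. Over all genes tested the median log2 change was -0.50. With median-of-ratios scaling it was -0.03, with quantile normalization -0.12, and with fibre and mitochondrial genes left out of the library sum -0.09.

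Proteases of all 3 enzyme families were mostly lower in HDCKO muscle, while the inhibitors were rearranged. Of the 42 genes tested, 30 (71.4%) were lower in HDCKO and 4 (9.52%) were higher, and 8 were not called. Among all 13288 genes tested, 42.6% were lower, 17.8% were higher and 60.4% were called in either direction. The median log2 change over the 42 genes was -1.58, against -0.50 over all genes tested. By family, 10 of 13 MMP genes, 8 of 9 ADAM genes and 10 of 11 ADAMTS genes were lower and none was higher. Of 5 ADAMTS-like genes, 1 was lower and 2 were higher, and of 4 TIMP genes, 1 was lower and 2 were higher. The 4 higher genes were Timp3, Timp4, Adamtsl2 and Adamtsl5. Every HDCKO library lay below every WT library in 30 of the 42 genes (71.4%) and above in 4 (9.52%). Over all genes tested these shares were 51.4% and 21.2%. The separated genes were the called ones, and the calls rest on the same 6 libraries, so the separation adds no further support.

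**Figure D1:**
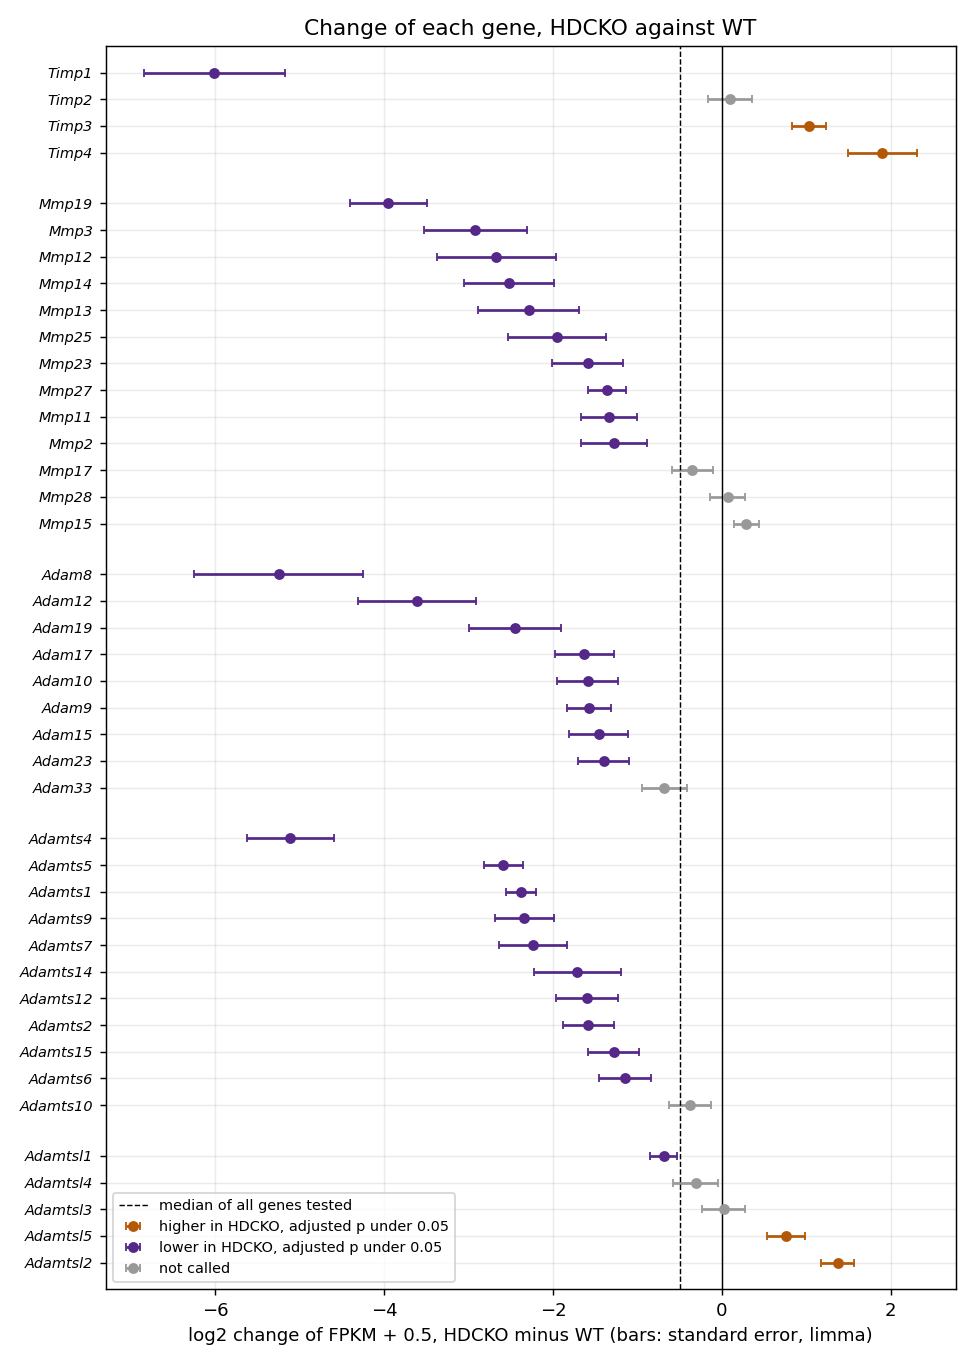
Log2 change of FPKM + 0.5, HDCKO minus WT (x axis), with its standard error, for the 42 tested genes (y axis), grouped from TIMPs at the top through MMPs, ADAMs and ADAMTS to ADAMTS-like genes; the dashed line is the median of all genes tested. Changes run from -6.01 for Timp1 to 1.90 for Timp4, and the 3 protease families lie almost wholly left of the dashed line.

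Of the tested genes, 3 had a mean of at least 0.5 FPKM only in WT (Adam33, Mmp17 and Mmp25) and 1 only in HDCKO (Adamtsl2), so for these the filter itself depended on the higher group. The counts describe the genes that passed the filter and were not tested as a set. Under median-of-ratios scaling 28 of the 42 were lower and 7 were higher. These 7 were Timp2, Timp3, Timp4, Mmp15, Mmp28, Adamtsl2 and Adamtsl5. Under that scaling 26.1% of all genes were lower and 26.6% higher. Without HDCKO replicate 2 only 17 were lower, with a median log2 change of -1.51, and the share of all genes called lower fell to 18.9%. A call was kept in each of the 15 alternative settings by 16 lower genes (Timp1, Mmp3, Mmp14, Mmp19, Mmp27, Adam8, Adam9, Adam12, Adam17, Adam23, Adamts1, Adamts2, Adamts4, Adamts5, Adamts7 and Adamts9) and 3 higher genes (Timp3, Timp4 and Adamtsl2).

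**Figure D2:**
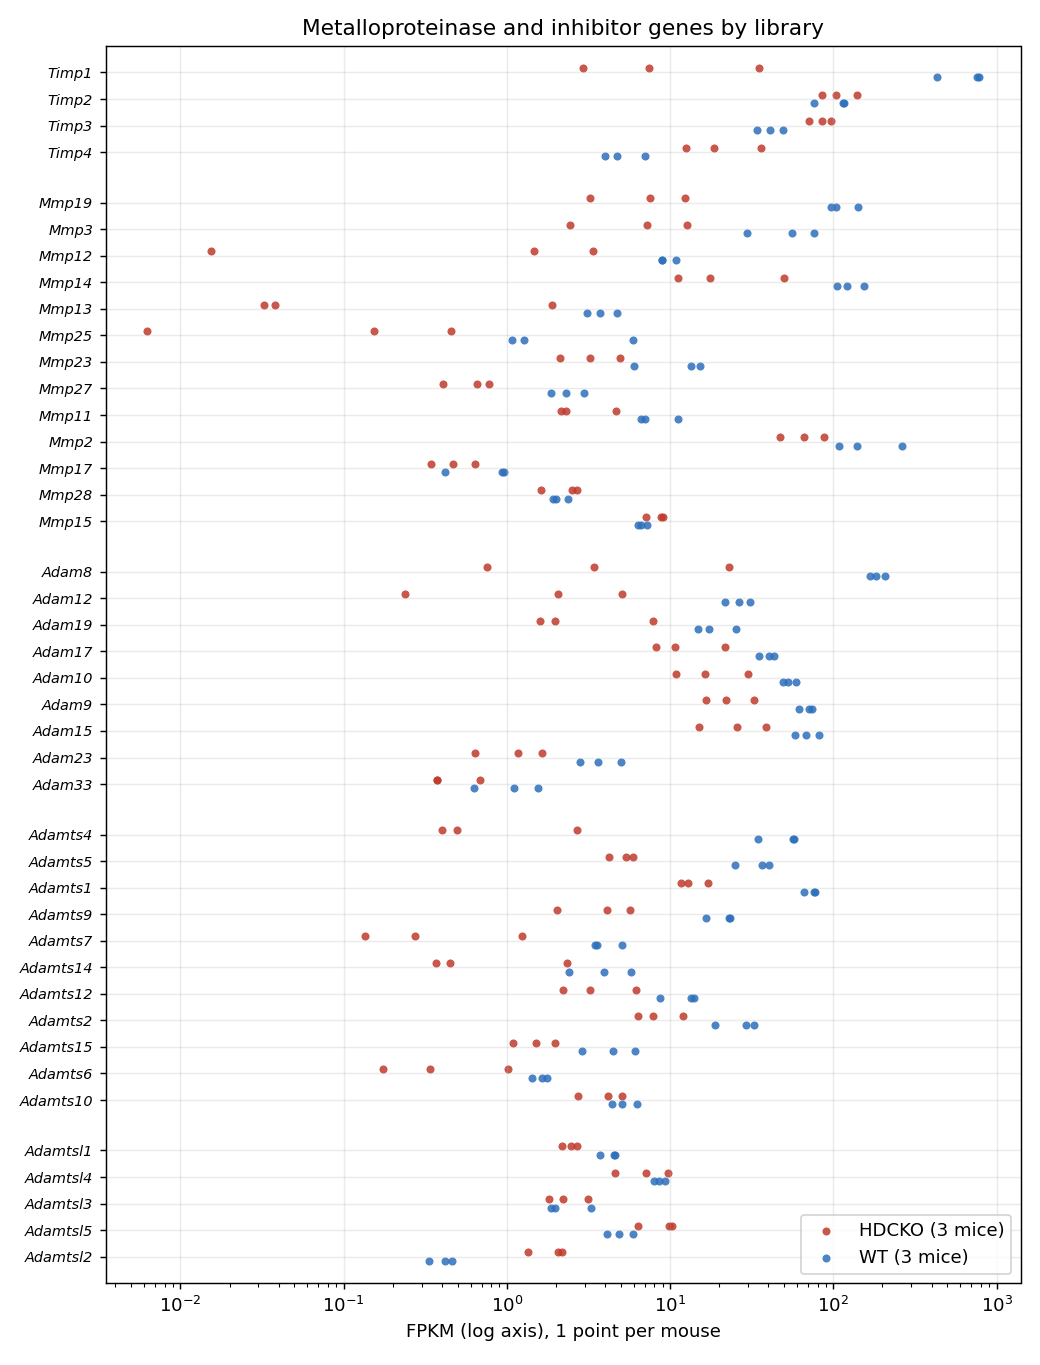
FPKM on a log axis (x) of each of the 42 tested genes (y) in the 3 HDCKO and 3 WT mice, 1 point per mouse. HDCKO points of many lower genes spread widely, as for Adam8 with 0.756 to 23.0 FPKM in HDCKO and 168 to 207 FPKM in WT.

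Marker lists of several cell types were lower in part, to be read against the 42.6% of all genes called lower and their median log2 change of -0.50. The 11 neutrophil markers tested were lower in HDCKO, with summed levels of 39.8 to 92.6 FPKM in HDCKO and 2607 to 14953 FPKM in WT. Of 14 macrophage and monocyte markers, 8 were lower and none higher, with sums of 333 to 2248 FPKM in HDCKO and 2597 to 3270 FPKM in WT. Of 10 fibroblast markers, 3 were lower and none higher, with sums of 1613 to 2456 FPKM in HDCKO and 2827 to 5532 FPKM in WT. Of 8 endothelial markers, 4 were lower and none higher, with sums of 187 to 277 FPKM in HDCKO and 373 to 561 FPKM in WT.

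Markers of muscle fibres, and part of those of their precursors, went the other way. The 10 muscle fibre markers were higher in HDCKO. Of 8 satellite cell and myoblast markers 4 were higher (Myog, Myf6, Myh8 and Cdh15) and none lower. The other 4 (Pax7, Myf5, Myod1 and Myh3) were not called, and their groups overlapped. Sums over the 8 were 106 to 198 FPKM in HDCKO and 10.6 to 40.4 FPKM in WT. Among 7 pericyte and smooth muscle markers 2 were higher and 1 was lower, with sums of 280 to 331 FPKM in HDCKO and 173 to 209 FPKM in WT. The lists for tenocytes (3 of 5 higher, sums 298 to 481 FPKM in HDCKO and 195 to 299 FPKM in WT), Schwann cells (1 of 5 higher, 237 to 299 FPKM in HDCKO and 127 to 225 FPKM in WT) and mast cells (2 of 6 lower, 32.9 to 61.0 FPKM in HDCKO and 35.2 to 70.4 FPKM in WT) were the remaining ones. No marker in these lists was at 0 in every library of a group. In bulk muscle, fewer cells of a type and less RNA per cell cannot be told apart, and the part of cell composition in the protease results was not tested.

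**Figure D3:**
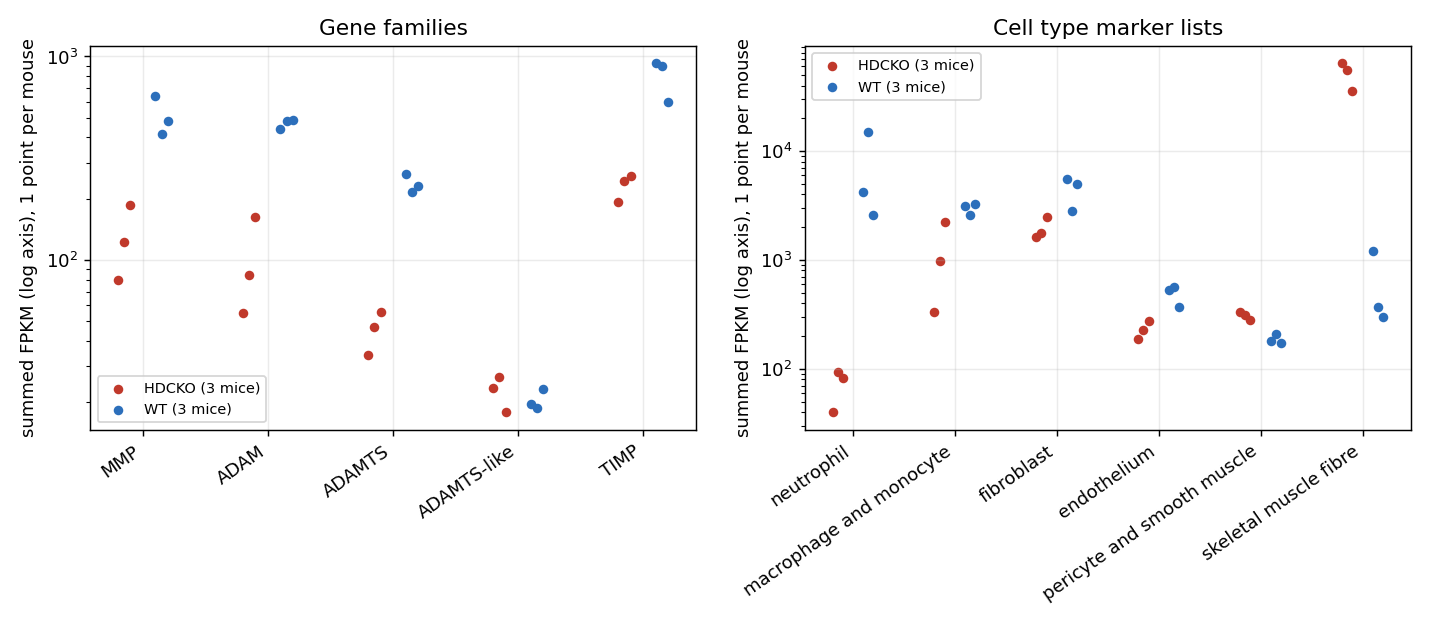
Summed FPKM on a log axis (y) of each gene family (left) and of 6 cell type marker lists (right) in the 3 HDCKO and 3 WT mice, 1 point per mouse. The MMP, ADAM, ADAMTS and TIMP sums lie lower in every HDCKO mouse, the ADAMTS-like sums overlap, and the marker lists separate in both directions.

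Among the inhibitors, Timp1 was lower and Timp3 and Timp4 were higher in HDCKO. Timp1, an injury-induced secreted inhibitor of most MMPs, had 2.94, 7.39 and 35.05 FPKM in HDCKO libraries, against 761, 779 and 431 FPKM in WT libraries. The groups were far apart, and even the highest HDCKO library was well below the lowest WT library. HDCKO means were 2.30% of those in WT (log2 change -6.01, SE 0.83, adjusted p = 0.0030), the largest decrease in the set. The gene (ENSMUSG00000001131) lies on chromosome X from 20736316 to 20740976 in GRCm39, inside Syn1, a gene of the opposite strand with which it shares 0 exon bases.

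Timp3, a matrix-bound inhibitor that also blocks ADAM17 and the aggrecan-cutting ADAMTS enzymes, had 85.5, 97.0 and 70.8 FPKM in HDCKO and 40.7, 33.9 and 49.4 FPKM in WT. Every HDCKO library was above every WT library. The mean was 2.04-fold higher, at 84.4 ± 13.2 FPKM in HDCKO and 41.3 ± 7.79 FPKM in WT (SD, n = 3 each; log2 change 1.03, SE 0.20, adjusted p = 0.0089).

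Timp4, an inhibitor known from heart and skeletal muscle, had 18.6, 36.2 and 12.6 FPKM in HDCKO and 6.99, 3.98 and 4.72 FPKM in WT. Again no HDCKO library overlapped WT, although HDCKO replicate 2 was well above the others. The mean was 4.29-fold higher, at 22.5 ± 12.3 FPKM in HDCKO and 5.23 ± 1.57 FPKM in WT (SD, n = 3 each; log2 change 1.90, SE 0.41, adjusted p = 0.011).

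Timp2, which with MMP14 takes part in the activation of pro-MMP2, had 85.1, 104 and 139 FPKM in HDCKO and 117, 76.45 and 114 FPKM in WT. These ranges overlapped, and no difference was called (log2 change 0.10, SE 0.26, adjusted p = 0.761). Relative to the median of all genes its change was 0.59, and with median-of-ratios scaling it was called higher (0.62, adjusted p = 0.044). Permuting the group labels of the 6 libraries (exact, two-sided) gave p = 0.1 for Timp1, Timp3 and Timp4, the smallest p that 3 against 3 allows, and p = 0.8 for Timp2.

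Timp3 lies inside Syn3 and Timp4 inside Syn2, both on the opposite strand, and share 21.3% and 14.7% of their annotated exon bases with those genes. Whether counting used the strand is not stated, so reads on shared bases cannot be told apart. Syn3 was at most 0.00753 FPKM in any library, and Syn2 ranged from 0.308 to 0.9002 FPKM in HDCKO and from 0.456 to 0.589 FPKM in WT.

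As shares of the summed TIMP level, Timp1 made up 1.53%, 3.02% and 13.6% in HDCKO, against 82.2%, 87.2% and 72.0% in WT. Timp2 made up 44.3%, 42.6% and 54.1% in HDCKO and 12.6%, 8.55% and 19.0% in WT, and had the highest mean of the 4 in HDCKO, although Timp3 was just above it in replicate 1. Timp1 alone carried most of the WT level. Timp1 per Timp3 was 0.0344, 0.0762 and 0.495 in HDCKO and 18.7, 23.0 and 8.72 in WT. The summed TIMP level was 232 ± 34.9 FPKM in HDCKO and 806 ± 180 FPKM in WT (SD, n = 3 each), but without Timp1 it was 217 ± 24.8 FPKM in HDCKO and 149 ± 30.0 FPKM in WT.

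**Figure D4:**
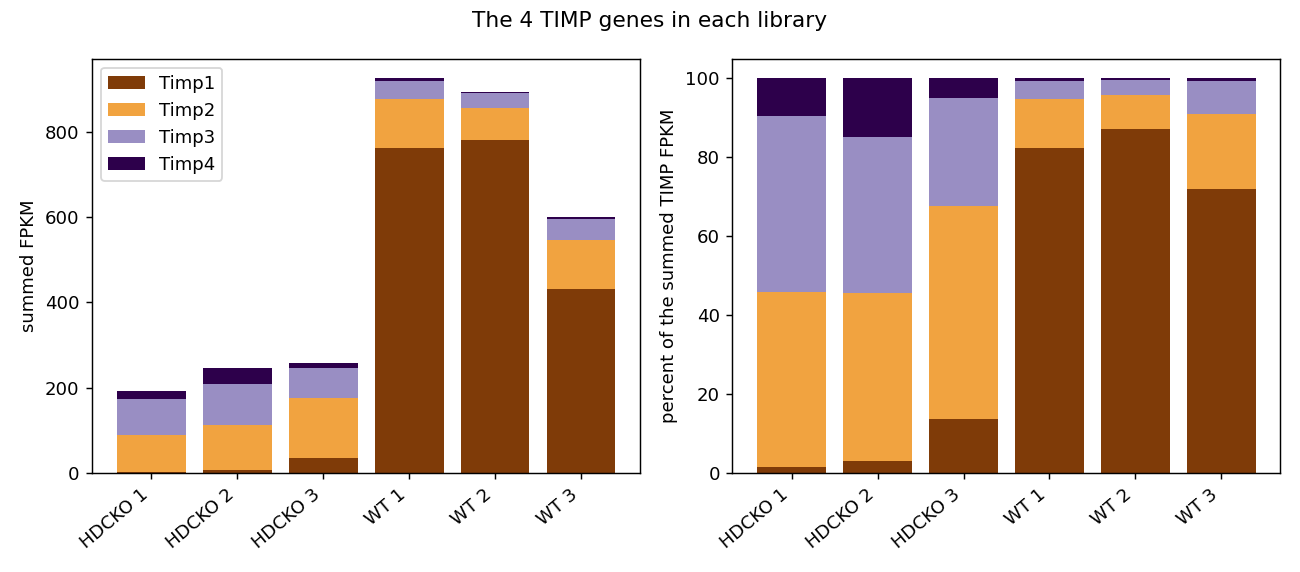
Summed FPKM of the 4 TIMP genes (left) and their percent of that sum (right) in each library, HDCKO 1 to 3 and WT 1 to 3. Timp1 fills 72.0% to 87.2% of the WT bars and 1.53% to 13.6% of the HDCKO bars, in which Timp2 and Timp3 take most of the rest.

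Set against the proteases, the summed TIMP level per summed MMP level was 2.42, 2.00 and 1.38 in HDCKO and 1.44, 2.14 and 1.24 in WT, and overlapped. The same ratio for Timp2 to Timp4 alone was 2.38, 1.94 and 1.20 in HDCKO and 0.255, 0.274 and 0.349 in WT, and did not. The MMP sum leaves out Mmp8 and Mmp9. Together these had 0.747, 7.06 and 7.99 FPKM in HDCKO and 118, 481 and 96.7 FPKM in WT. Both ratios, and the overlap of the first, therefore hold only for the MMP genes of the set. They are ratios of transcript levels per length and were not tested.

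The MMP level summed over 19 genes was 79.5, 123 and 186 FPKM in HDCKO and 643, 418 and 481 FPKM in WT. Gelatinase A, Mmp2, which cuts denatured collagen and basement membrane collagen, had the highest mean of these 19 genes in both groups. Mmp19 was just above it in WT replicate 3. Mmp2 had 46.8, 66.5 and 87.9 FPKM in HDCKO and 265, 108 and 139 FPKM in WT. Its groups were apart, and WT replicate 1 was far above the other WT libraries. Its share of the MMP level was 58.9%, 54.2% and 47.2% in HDCKO and 41.2%, 25.8% and 28.8% in WT. The change (log2 change -1.28, SE 0.39, adjusted p = 0.032) was among the less stable. No call was made with median-of-ratios scaling (-0.75, adjusted p = 0.111), quantile normalization (-0.98, adjusted p = 0.060), fibre and mitochondrial genes left out (-0.82, adjusted p = 0.105) or no filter (adjusted p = 0.059). Nor was it called without HDCKO replicate 1 or 2 or WT replicate 1 or 3 (adjusted p = 0.071 to 0.087). About 24.3% of its exon bases are shared with an opposite-strand non-coding gene.

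Mmp14, the membrane-type enzyme that cuts fibrillar collagen at the cell surface and activates pro-MMP2, had 11.1, 17.6 and 50.2 FPKM in HDCKO and 155, 105 and 121 FPKM in WT. HDCKO replicate 3 stood above the other HDCKO libraries and below every WT library. The mean was 26.3 ± 20.9 FPKM in HDCKO and 127 ± 25.4 FPKM in WT (SD, n = 3 each; log2 change -2.52, SE 0.53, adjusted p = 0.011).

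Mmp19, a secreted enzyme that cuts basement membrane components, had 3.22, 7.58 and 12.4 FPKM in HDCKO and 96.9, 104 and 141 FPKM in WT. Its mean was 14.7-fold lower in HDCKO (log2 change -3.95, SE 0.46, adjusted p = 0.0016), and its share of the MMP level was 4.05% to 6.67% in HDCKO and 15.1% to 29.3% in WT. No HDCKO library came near the WT range. Mmp19 shares 30.6% of its exon bases with Tmem198b on the opposite strand, which had 1.88 to 3.90 FPKM in HDCKO and 7.26 to 9.43 FPKM in WT.

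Both stromelysins that passed the filter were lower. Mmp3 (stromelysin-1), which cuts proteoglycans and activates other proMMPs, had 2.44, 12.6 and 7.26 FPKM in HDCKO and 76.1, 55.9 and 29.6 FPKM in WT (log2 change -2.92, SE 0.61, adjusted p = 0.010). Mmp11 (stromelysin-3), which is activated inside the cell by furin, had 2.15, 2.30 and 4.69 FPKM in HDCKO and 11.1, 6.63 and 7.02 FPKM in WT (log2 change -1.34, SE 0.33, adjusted p = 0.017). Neither gene's groups overlapped, and the call of Mmp11 was lost without HDCKO replicate 2 (adjusted p = 0.063) or WT replicate 1 (adjusted p = 0.056). Mmp10, the other stromelysin, was below the filter.

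Macrophage elastase, Mmp12, had 0.0154, 1.47 and 3.35 FPKM in HDCKO and 8.96, 8.87 and 10.9 FPKM in WT. The value of HDCKO replicate 1 rests on very few fragments, while the 3 WT libraries lay close together. The mean was 1.61 ± 1.67 FPKM in HDCKO and 9.59 ± 1.17 FPKM in WT (SD, n = 3 each; log2 change -2.67, SE 0.70, adjusted p = 0.020). The collagenase Mmp13 had 0.0326, 0.0380 and 1.89 FPKM in HDCKO and 3.10, 4.76 and 3.72 FPKM in WT (log2 change -2.29, SE 0.60, adjusted p = 0.020). For both genes HDCKO replicate 3 was the highest of its group and below every WT library. Both calls were lost without HDCKO replicate 2 or any WT library, with adjusted p = 0.052 to 0.069.

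The remaining called MMPs were Mmp27, Mmp23 and Mmp25, of which Mmp27 and Mmp25 were expressed at low levels. Mmp27 had 0.409, 0.779 and 0.661 FPKM in HDCKO and 2.98, 1.86 and 2.30 FPKM in WT (log2 change -1.36, SE 0.22, adjusted p = 0.0048), with the groups apart and little spread. Mmp23, which is anchored to the membrane through its N terminus, had 2.13, 3.22 and 4.90 FPKM in HDCKO and 13.5, 6.01 and 15.2 FPKM in WT (log2 change -1.59, SE 0.42, adjusted p = 0.020). Mmp25, a membrane-type enzyme known from neutrophils, had 0.00627, 0.154 and 0.453 FPKM in HDCKO and 1.08, 5.93 and 1.28 FPKM in WT (log2 change -1.95, SE 0.58, adjusted p = 0.028). WT replicate 2 had the highest level of Mmp25 and also the highest summed neutrophil markers, 14953 FPKM. A link between them was not tested, and only 3 WT libraries were ranked. The call of Mmp23 was lost without HDCKO replicate 2 or WT replicate 1 or 3 (adjusted p = 0.064 to 0.068) and was just lost with fibre and mitochondrial genes left out of the sum (adjusted p = 0.050). That of Mmp25 was lost without HDCKO replicate 1 or 2 or WT replicate 3 (adjusted p = 0.051 to 0.083) and with no filter (adjusted p = 0.056).

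Mmp15, Mmp17 and Mmp28, named here after their values were seen, were the 3 MMPs not called. The membrane-type Mmp15 had 8.85, 7.16 and 9.02 FPKM in HDCKO and 6.67, 7.18 and 6.32 FPKM in WT, overlapping by a narrow margin (log2 change 0.29, adjusted p = 0.133). By mean level it ranked 3 among the MMPs of HDCKO and 8 among those of WT, although Mmp19 was above it in HDCKO replicates 2 and 3 and Mmp3 in HDCKO replicate 2. Adjusted p was 0.242 for Mmp17 (log2 change -0.35) and 0.762 for Mmp28 (log2 change 0.07). Mmp7, the matrilysin, was listed at 0 in 5 of the 6 libraries and at 0.0281 FPKM in WT replicate 1. The 2 neutrophil enzymes outside the set had larger changes. Mmp8 had 0.272, 1.01 and 0.921 FPKM in HDCKO and 74.9, 356 and 49.5 FPKM in WT (log2 change -6.54, adjusted p = 0.0015), and Mmp9 had 0.474, 6.05 and 7.07 FPKM in HDCKO and 43.1, 125 and 47.2 FPKM in WT (log2 change -4.13, adjusted p = 0.010). WT replicate 2 was highest for both.

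Of the MMP genes, 7 lie together on chromosome 9, from 7272514 to 7581891 in GRCm39 (309 kb). They are Mmp13, Mmp12, Mmp1b, Mmp3, Mmp1a, Mmp10 and Mmp27, and the 4 that passed the filter, Mmp3, Mmp12, Mmp13 and Mmp27, were each lower. Of all 13 MMP genes tested 10 were lower, as were 30 of the 42 genes of the set. A joint change of the cluster was not tested. Mmp1a, Mmp1b and Mmp10 were below the filter, and the calls of Mmp12 and Mmp13 were lost in several settings. With these calls known, the 120 bases before the start of each of the 4 called genes were chosen for display. They were read from RefSeq's promoter table (built on GRCm38.p6) and placed by exact match in GRCm39, all on the plus strand. Capitals mark TGANTCA, the core of the site bound by AP-1, a factor long studied at MMP promoters.

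Mmp3 (chr9:7445702-7445821): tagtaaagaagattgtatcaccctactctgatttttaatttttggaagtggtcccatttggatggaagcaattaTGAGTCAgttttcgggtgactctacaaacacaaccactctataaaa
Mmp12 (chr9:7347254-7347373): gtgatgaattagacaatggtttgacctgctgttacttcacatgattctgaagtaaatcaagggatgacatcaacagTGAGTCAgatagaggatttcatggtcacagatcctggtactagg
Mmp13 (chr9:7272394-7272513): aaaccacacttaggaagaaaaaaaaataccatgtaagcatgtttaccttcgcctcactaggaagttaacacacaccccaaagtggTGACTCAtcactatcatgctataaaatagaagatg
Mmp27 (chr9:7571277-7571396): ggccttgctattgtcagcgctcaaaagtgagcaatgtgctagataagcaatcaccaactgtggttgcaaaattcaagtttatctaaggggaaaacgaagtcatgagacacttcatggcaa

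TGANTCA was searched on both strands in the 250 bases before each start. It was present in 6.75% of 32851 RefSeq promoters, and in Mmp3, Mmp12, Mmp13 and 1 of the other 16 lower genes that had a promoter in the table (Adam19). None of the 4 higher genes or the 5 genes not called with a promoter there held it. At a background of 6.75%, so few genes could not show a lack of it. It was also in 4 of the 14 genes below the filter that had a promoter there, namely Mmp1a, Mmp1b, Mmp10 and Mmp7 (at 1 of its 2 starts), the first 3 of them in the same cluster. The 4 cluster promoters had 37.6% to 40.4% G and C and held no GGGCGG, the core of the site of Sp1. The 16 other lower genes had 50.0% to 78.0% G and C, and 12 of them held GGGCGG. So did 3 of the 4 higher genes, the 5 genes not called and 4 of the 14 below the filter. GGGCGG therefore did not set the lower genes apart. It was in 32.7% of all promoters, a share counted per promoter and not per gene. The table has a further start for Mmp12, close to the one GENCODE gives the gene, whose promoter held no TGANTCA; the site stands only before the start further downstream, which is the one printed. A match describes the sequence and does not show that a factor was bound.

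The ADAM level summed over 20 genes was 55.0, 84.7 and 162 FPKM in HDCKO and 439, 481 and 489 FPKM in WT. Adam8, a protease known from leukocytes, showed the largest change of the family, with 0.756, 3.43 and 23.0 FPKM in HDCKO and 168, 207 and 184 FPKM in WT. HDCKO libraries differed widely among themselves, with replicate 3 far above replicate 1, yet stayed well below WT. The mean was 20.6-fold lower in HDCKO (log2 change -5.25, SE 1.00, adjusted p = 0.0078). Adam8 made up 1.37%, 4.05% and 14.2% of the ADAM level in HDCKO and 38.3%, 43.0% and 37.6% in WT, where it was the leading ADAM. The order of the HDCKO libraries, lowest in replicate 1 and highest in replicate 3, was also that of the summed macrophage, fibroblast, endothelial and satellite cell markers and of most genes called lower.

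The meltrins Adam12 and Adam19, expressed in muscle precursors and connective tissue, were both lower. Adam12 had 0.239, 2.05 and 5.09 FPKM in HDCKO and 26.5, 21.7 and 31.1 FPKM in WT (log2 change -3.61, SE 0.70, adjusted p = 0.0084). Adam19 had 1.60, 1.98 and 7.89 FPKM in HDCKO and 14.8, 25.3 and 17.4 FPKM in WT (log2 change -2.45, SE 0.55, adjusted p = 0.013). The groups of both were apart. Of 8 satellite cell and myoblast markers 4 were higher in HDCKO and 4, among them Pax7, Myf5 and Myod1, were not called. Without HDCKO replicate 2 the call of Adam19 was just lost (adjusted p = 0.050).

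The widely expressed sheddases had smaller log2 changes. Adam17, which releases TNF and ligands of the EGF receptor, had 8.22, 10.7 and 21.5 FPKM in HDCKO and 35.03, 43.1 and 40.5 FPKM in WT (log2 change -1.63, SE 0.35, adjusted p = 0.011). Adam10, the sheddase of Notch and cadherins, had 10.8, 16.3 and 29.9 FPKM in HDCKO and 49.5, 59.3 and 52.8 FPKM in WT (log2 change -1.59, SE 0.36, adjusted p = 0.013). The mean was 2.94-fold lower for Adam17 and 2.83-fold lower for Adam10, with no overlap between the groups for either gene. Adam9 had 16.5, 22.0 and 32.5 FPKM in HDCKO and 71.4, 61.2 and 74.1 FPKM in WT (log2 change -1.57, SE 0.26, adjusted p = 0.0053). Adam15 had 14.985, 25.8 and 38.6 FPKM in HDCKO and 67.7, 58.5 and 81.5 FPKM in WT (log2 change -1.46, SE 0.35, adjusted p = 0.015). In each of these 4 genes the HDCKO level was lowest in replicate 1 and highest in replicate 3. Without HDCKO replicate 2 the calls of Adam10 (adjusted p = 0.050) and Adam15 (adjusted p = 0.053) were lost, and that of Adam15 also without WT replicate 3 (adjusted p = 0.056).

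Adam15 had the highest mean of the family in HDCKO, although Adam9 was above it in replicate 1, with 23.8% to 30.5% of the ADAM level in HDCKO and 12.2% to 16.7% in WT. Adam23, a non-proteolytic member best known from the nervous system, had 0.637, 1.17 and 1.65 FPKM in HDCKO and 3.63, 2.79 and 5.02 FPKM in WT (log2 change -1.40, SE 0.30, adjusted p = 0.012). Its groups did not overlap. Adam33, named after its values were seen, was not called (log2 change -0.68, adjusted p = 0.066).

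The ADAMTS level summed over 19 genes averaged 45.7 ± 10.8 FPKM in HDCKO and 237 ± 25.1 FPKM in WT (SD, n = 3 each). Most of the WT level came from the hyalectanases, which cut versican and aggrecan and whose sums were 21.7, 30.6 and 27.5 FPKM in HDCKO and 201, 175 and 171 FPKM in WT. Each of the 5 hyalectanases tested was lower.

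Adamts4 had 0.401, 0.494 and 2.70 FPKM in HDCKO and 56.8, 57.7 and 34.8 FPKM in WT. The gap was wide, with a mean 41.5-fold lower in HDCKO (log2 change -5.11, SE 0.52, adjusted p = 0.0011). It made up 1.17%, 1.05% and 4.84% of the ADAMTS level in HDCKO and 21.5%, 26.8% and 15.01% in WT.

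Adamts1 had 12.9, 17.0 and 11.6 FPKM in HDCKO and 76.9, 66.1 and 76.3 FPKM in WT, with little spread in either group. Its mean was 5.29-fold lower in HDCKO (log2 change -2.38, SE 0.18) and its adjusted p, 4.4e-04, was the smallest of the set. Unlike most of the lower genes, its HDCKO level was lowest in replicate 3. Adamts5, its neighbour on chromosome 16 (85590579 to 85698716 in GRCm39 for the pair), had 4.22, 5.36 and 5.90 FPKM in HDCKO and 40.1, 24.8 and 36.6 FPKM in WT. Its mean was 6.56-fold lower (log2 change -2.59, SE 0.23, adjusted p = 6.7e-04), with the 3 HDCKO libraries close together.

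Adamts9 had 2.04, 5.71 and 4.12 FPKM in HDCKO and 22.9, 23.3 and 16.6 FPKM in WT (log2 change -2.34, SE 0.35, adjusted p = 0.0038). Adamts15 had 1.08, 1.51 and 1.96 FPKM in HDCKO and 4.49, 2.89 and 6.08 FPKM in WT (log2 change -1.28, SE 0.30, adjusted p = 0.014), and its call was lost without HDCKO replicate 2 (adjusted p = 0.050). Neither gene's groups overlapped. Levels of Adamts8 and Adamts20, the other hyalectanases, were below the filter.

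Adamts2, which removes the N-propeptide of fibrillar procollagens, had 6.38, 7.81 and 12.0 FPKM in HDCKO and 32.9, 18.9 and 29.2 FPKM in WT (log2 change -1.58, SE 0.30, adjusted p = 0.0079). Among enzymes that cut cartilage oligomeric matrix protein (COMP), Adamts7 had 0.135, 0.273 and 1.25 FPKM in HDCKO and 5.08, 3.59 and 3.47 FPKM in WT (log2 change -2.24, SE 0.40, adjusted p = 0.0066). Adamts12 had 2.20, 3.21 and 6.15 FPKM in HDCKO and 14.0, 8.67 and 13.5 FPKM in WT (log2 change -1.60, SE 0.37, adjusted p = 0.014). All 3 genes had separate groups, and the call of Adamts12 was lost without HDCKO replicate 2 or WT replicate 1 or 3 (adjusted p = 0.051 to 0.053). Adamts14 (log2 change -1.71, adjusted p = 0.032) and Adamts6 (log2 change -1.15, adjusted p = 0.023) were also lower, and Adamts10 (log2 change -0.38, adjusted p = 0.219) was not called. These 3 were named after their values were seen.

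The summed level of the ADAMTS-like genes overlapped between the groups, with 22.7 ± 4.39 FPKM in HDCKO and 20.6 ± 2.45 FPKM in WT (SD, n = 3 each). Adamtsl2, a matrix protein that binds fibrillin and the latent TGF-beta complex, had 2.17, 2.07 and 1.35 FPKM in HDCKO and 0.463, 0.419 and 0.336 FPKM in WT. All 3 HDCKO libraries were above WT, with a mean 4.59-fold higher (log2 change 1.37, SE 0.20, adjusted p = 0.0034). The gene (chromosome 2, 26949885 to 26998993, plus strand in GRCm39) overlaps Mymk on the opposite strand with 0 shared exon bases.

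Adamtsl5, another fibrillin-binding member, had 10.3, 9.85 and 6.35 FPKM in HDCKO and 4.89, 4.10 and 5.90 FPKM in WT. The lowest HDCKO library was only just above the highest WT library (log2 change 0.76, SE 0.23, adjusted p = 0.032). Its call was lost with no filter (adjusted p = 0.055) and without HDCKO replicate 1 or 2 or any WT library (adjusted p = 0.055 to 0.107). Adamtsl1 had 2.17, 2.68 and 2.49 FPKM in HDCKO and 4.55, 3.70 and 4.57 FPKM in WT (log2 change -0.69, SE 0.16, adjusted p = 0.013). The groups were apart, but the change was close to the median of all genes, and it was not called with median-of-ratios scaling (-0.23, adjusted p = 0.284), quantile normalization (-0.32, adjusted p = 0.217) or fibre and mitochondrial genes left out (-0.31, adjusted p = 0.135). Without WT replicate 1 or 3 its adjusted p was 0.057 and 0.056. Adamtsl3 (log2 change 0.02, adjusted p = 0.950) and Adamtsl4 (log2 change -0.31, adjusted p = 0.343), named after their values were seen, were not called.

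HDCKO libraries were less alike than WT libraries over the tested genes of the set. Correlations of log2 values across these genes, which are not independent, were 0.846 to 0.959 among HDCKO libraries, 0.967 to 0.984 among WT libraries and 0.474 to 0.854 between the groups. Among the 30 lower genes, HDCKO replicate 1 had the lowest level of its group in 28 and HDCKO replicate 3 the highest in 25. The same order held widely, since replicate 1 was lowest in 87.5% and replicate 3 highest in 91.4% of all 5658 genes called lower. Among the 4 higher genes, replicate 3 was the lowest in each. Without HDCKO replicate 3, 31 genes were lower and 4 higher.

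Genes that control or are cut by these proteases, with the companions Mmp8 and Mmp9, were taken from 11 lists holding 114 genes. Of these, 93 were tested. In HDCKO 56 were lower and 7 were higher, and 30 were not called. The median log2 change was -1.25, against -0.50 over all genes tested, of which 42.6% were lower and 17.8% higher. Each list below is to be read against those shares. Some genes, such as Mmp8, Mmp9, Lcn2, Cd163, Mertk, Cdh5 and Col3a1, also stand in the marker lists above. The counts over both kinds of list are therefore partly of the same genes.

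Inhibitors and clearance receptors other than TIMPs were mostly lower (8 of 11, with Spock2 higher). Lrp1, the endocytic receptor that clears MMPs, ADAMTS enzymes and TIMPs, had 17.1, 26.6 and 45.2 FPKM in HDCKO and 139, 102 and 146 FPKM in WT (log2 change -2.20, adjusted p = 0.0053). Its groups were apart. Lrp8, a related receptor, was lower as well (log2 change -2.11, adjusted p = 0.0037).

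In the lists for proprotein convertases, the plasmin system and astacin proteases, most genes tested were lower. Of 5 proprotein convertases 4 were lower and Pcsk6 was higher. Furin, which activates membrane-type MMPs, ADAMs and ADAMTS enzymes, had 9.57, 10.97 and 20.8 FPKM in HDCKO and 48.7, 66.1 and 52.5 FPKM in WT (log2 change -2.05, adjusted p = 0.0040). Its groups were apart, and the related Pcsk5 (log2 change -2.69, adjusted p = 0.0070) and Pcsk7 (-0.94, adjusted p = 0.014) were lower too. The call of Pcsk7 was lost without HDCKO replicate 2, WT replicate 2 or WT replicate 3 (adjusted p = 0.053 to 0.057) and with fibre and mitochondrial genes left out of the sum (adjusted p = 0.051). Of 5 plasmin system genes 3 were lower. Urokinase itself, Plau (log2 change -1.26, adjusted p = 0.052), and Plgrkt (-0.61, adjusted p = 0.068) were not called. The groups of Plau overlapped, and Plg was below the filter. Plaur, the urokinase receptor, had 1.27, 2.94 and 13.1 FPKM in HDCKO and 77.5, 91.8 and 60.9 FPKM in WT (log2 change -4.13, adjusted p = 0.0060), with Plat, tissue plasminogen activator (-1.88, adjusted p = 0.0053), and S100a10, a plasminogen receptor subunit (-2.14, adjusted p = 0.0089), also lower. Both astacin proteases tested were lower. Bmp1, the procollagen C-proteinase, had 10.6, 12.5 and 20.1 FPKM in HDCKO and 79.8, 46.3 and 73.5 FPKM in WT (log2 change -2.18, adjusted p = 0.0034), and Tll1, its relative, changed by -1.66 (adjusted p = 0.0025).

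Partners of the sheddases were mixed. Of 7 genes for ADAM17 maturation and transport 3 were lower and 1 higher, near the shares over all genes. Ptpn3, a phosphatase that binds ADAM17, had 17.4, 17.7 and 11.9 FPKM in HDCKO and 1.11, 1.04 and 1.13 FPKM in WT, a mean 14.3-fold higher (log2 change 3.32, adjusted p = 2.0e-04). Each HDCKO library was far above the tight WT range. The iRhoms, which escort ADAM17 to the cell surface, were lower (Rhbdf1 log2 change -0.79, adjusted p = 0.014; Rhbdf2 -1.27, adjusted p = 0.013). The call of Rhbdf1 was lost without HDCKO replicate 2, WT replicate 1 or WT replicate 3 (adjusted p = 0.056 to 0.057) and with median-of-ratios scaling (-0.29, adjusted p = 0.119), quantile normalization (-0.35, adjusted p = 0.078) and fibre and mitochondrial genes left out (-0.36, adjusted p = 0.096). That of Rhbdf2 was lost without HDCKO replicate 2 (adjusted p = 0.055).

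Of 5 tetraspanins that escort ADAM10, Tspan14 (log2 change -1.53, adjusted p = 0.015) and Tspan5 (-1.12, adjusted p = 0.0078) were lower and Tspan33 was higher (1.04, adjusted p = 0.036), also near those shares. Tspan14 lost its call without HDCKO replicate 2, WT replicate 2 or WT replicate 3 (adjusted p = 0.051 to 0.055). Tspan33, a gene with 0.712, 1.08 and 1.86 FPKM in HDCKO and 0.329, 0.0808 and 0.579 FPKM in WT, lost it without HDCKO replicate 2 or 3 or WT replicate 1 or 2 (adjusted p = 0.064 to 0.104) and with no filter (adjusted p = 0.066).

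MMP inducers and binding partners were lower in 7 of 10 and higher in none. Sdc4, a heparan sulfate proteoglycan, had 19.9, 23.0 and 28.6 FPKM in HDCKO and 113, 90.7 and 85.1 FPKM in WT, a mean 4.04-fold lower in HDCKO (adjusted p = 9.3e-04). Lcn2, a neutrophil granule protein that binds MMP9, changed by -4.45 (adjusted p = 0.0016), and the integrin subunit Itgb3 changed by -2.47 (adjusted p = 0.0040).

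Shed substrates went in both directions. Of 6 EGF family ligands tested 4 were lower and 1, Egf, was higher. Egf had 8.62, 6.56 and 8.07 FPKM in HDCKO and 0.280, 0.163 and 0.230 FPKM in WT, a mean 34.5-fold higher (log2 change 3.50, adjusted p = 1.5e-04). The groups were far apart with little spread. Ereg, an inducible ligand released by ADAM17, ran the other way with 0.00703, 0.00820 and 0.0321 FPKM in HDCKO and 6.004, 4.88 and 3.89 FPKM in WT (log2 change -3.38, adjusted p = 1.9e-04). Areg was listed at 0 in HDCKO replicates 1 and 2 and at 0.262 FPKM in replicate 3, against 1.06, 1.22 and 2.64 FPKM in WT (log2 change -1.82, adjusted p = 0.0069).

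Among 27 shed cytokines, receptors and adhesion proteins 15 were lower and 1 was higher. Il1r2, the decoy receptor of interleukin-1, had 0.358, 1.30 and 1.06 FPKM in HDCKO and 34.6, 92.5 and 19.0 FPKM in WT (log2 change -4.89, adjusted p = 0.0020). Its level in WT was highest in replicate 2, as for Mmp8, Mmp9 and Mmp25. The Notch ligand Jag1 was lower (log2 change -1.54, adjusted p = 0.0040), and Ptprb, an endothelial phosphatase, was higher (1.18, adjusted p = 0.0027).

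Of 13 matrix substrates of ADAMTS enzymes 6 were lower and 1, Comp, was higher, a share near the 42.6% of all genes called lower. Vcan (versican), the main hyalectan of provisional matrix, had 1.59, 2.74 and 8.03 FPKM in HDCKO and 92.7, 77.3 and 118 FPKM in WT (log2 change -4.62, adjusted p = 0.0014). The substrate lay lower together with the hyalectanases, and its groups were far apart. Thbs1 (log2 change -4.32, adjusted p = 0.0025) and Thbs2 (-1.97, adjusted p = 0.0076), matricellular proteins that bind MMP2, were lower.

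Of the 67 genes 25 were below the filter, 6 MMP, 11 ADAM and 8 ADAMTS genes. None reached more than 0.750 FPKM in any library, and 12 of them were at 0 in at least 1 library. Only those near 0 rest on few fragments at this depth. Adamts20, a hyalectanase named here after its values were seen, had 0.678, 0.413 and 0.571 FPKM in HDCKO and 0.0863, 0.0970 and 0.114 FPKM in WT. In a fit without the filter it was higher (log2 change 0.81, SE 0.11, adjusted p = 0.0066), unlike the other hyalectanases that were called.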

How the data were processed

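The authors deposited 1 table of FPKM values, made from counts per the submitters' processing notes, with 1 column per library and 0 columns of other samples. Those notes name FastQC 0.11.9, HISAT2 2.1.0, HTSeq 0.11.2, STAR 2.7.11b, GRCm39 and DESeq2 1.22.2. The sources used here do not say which aligner gave the values or whether strand was used. These are normalized values, so limma-trend (limma 3.58.1, R 4.3.3) was fitted to log2(FPKM + 0.5) for genes averaging 0.5 FPKM or more across the 6 libraries, HDCKO against WT with no covariate, adjusted by Benjamini and Hochberg's method over 13288 genes with a threshold of 0.05. The procedure was also run on simulated data with independent noise and known changes in a small part of the genes. That run does not show how it behaves with differences as wide as those found here. No depth is recorded in the table; it was estimated from steps between low values, with a tolerance of 0.02 fragments and the most frequent result over 184 genes, and entered no test. With 3 mice per group the smallest exact permutation p is 0.1.

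The genes of the set and all lists were chosen with earlier results of these data known, so counts over them are descriptions. Named with each library's value were the TIMPs, every called MMP, up to 8 called genes per direction of each other family by smallest p, genes averaging 20 FPKM or more in a group, and up to 3 called genes of each other list; others are said to be named after their values were seen. Some genes under this rule are not reported here. A split of ADAMs by their zinc-binding motif was not made. GENCODE M39 gave coordinates for 67 genes. The alternatives were 15 settings: other pseudocounts, filters and scalings, sample weights, a replicate block and leaving out each library.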

Additional observations from a re-analysis of the deposited data

How the results depend on the processing

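None of the 34 called genes of the set changed direction in any of the 15 settings. Pseudocounts of 0.1 and 1, the filter at 1 FPKM and sample weights (whose estimation stopped before its convergence tolerance) ended no call of a named gene of the set. Genes of the set lower in HDCKO numbered 30, and 17 to 31 when 1 library was left out (17 without HDCKO replicate 2), and those higher numbered 4, with 7 under median-of-ratios scaling and 3 to 4 with 1 library left out. Pathway genes lower numbered 56 (37 to 64 with 1 library left out) and higher 7 (11 under median-of-ratios scaling, quantile normalization and with fibre and mitochondrial genes left out; 4 to 7 with 1 library left out). Of all genes, 5658 were lower (3457 under median-of-ratios scaling, 3085 with fibre and mitochondrial genes out, 2507 to 7288 with 1 library left out) and 2362 were higher (3647 with fibre and mitochondrial genes out, 1753 to 2455 with 1 library left out). Summed levels moved as the scaling itself does. With fibre and mitochondrial genes out they were 188 for MMP, 67.2 for ADAMTS, 34.0 for ADAMTS-like and 342 for TIMP genes in HDCKO and 507 for ADAM genes in WT. Under median-of-ratios scaling they were 28.05 for ADAMTS-like and 276 for TIMP genes in HDCKO, and 388 for ADAM, 196 for ADAMTS and 17.0 for ADAMTS-like genes in WT. Same-numbered libraries of the groups share only a number (correlations of deviations 0.122, 0.067 and 0.138). With the number as a replicate block 30 genes of the set were lower and 3 higher, and Adamtsl5 (adjusted p = 0.070) and Mmp2 (adjusted p = 0.064) lost their calls. Depth limits what can be said of the genes near 0.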
